A study of Rattus norvegicus with 4 samples.

Results

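The genes described here burn fatty acids and make ketone bodies in the liver. The 37 genes were listed by name and matched to the gene symbols of a table of 32545 rat genes. Of them, 34 had a row of that symbol and 3 (Eci2, Acot1 and Acaa1b) had none, so their expression is not analysed here. By compartment, 20 of the 34 act in or at the mitochondrion, 4 in the peroxisome, 2 in ketone body metabolism, and 8 handle fatty acids or respond to fasting. Acad11 and Crat, counted with the mitochondrial genes, also occur in peroxisomes. Messenger RNA of rat liver was sequenced in 4 libraries. The control group, forced activity, holds 2 libraries of animals that were kept active. The other group, sleep restriction, holds 2 libraries of animals that had forced activity and, in addition, restricted sleep. Forced activity is thus shared by both groups, and the strain, sex, age and duration are not stated in the labels. Nor do the labels say that the libraries came from separate animals, so each p-value measures only the spread between these libraries, which may be technical.

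Fatty acids enter the mitochondrion as carnitine esters and are shortened there in repeated rounds of dehydrogenation, hydration, dehydrogenation and thiolysis. Peroxisomes shorten very long and branched chains by parallel enzymes, which pass on medium-chain products. In the fasted liver the acetyl-CoA that results is turned into ketone bodies, and many genes of the pathway are targets of the nuclear receptor PPARα.

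The columns of the table summed to between 508202.6 and 520275.6 counts. Those even totals hide uneven depth, because both replicate 1 columns look like means over draws from deeper libraries. In units of 1e6 counts, the replicate 1 libraries held at least 6.35 and 5.73 before drawing, and the replicate 2 libraries about 0.867 and 0.520. The 8 hepatocyte markers summed to between 192515 and 204016 counts per 1e6 counts (CPM) in each library, and 3 skeletal muscle markers (Mb, Ckm and Acta1) and 3 of 4 adipocyte markers (Adipoq, Plin1 and Lep) were at 0 throughout. The 5 endothelial markers with a row summed to 57.4 and 203.8 CPM in the control libraries and to 198.9 and 106.7 CPM with sleep restricted. Macrophage markers summed to 265.7 and 378.9, then 469.4 and 314.3 CPM. Red cell markers varied as well, at 399.4 and 862.4, then 542.3 and 337.5 CPM. Stellate cell markers were more even, at 138.4 and 120.5, then 122.4 and 122.2 CPM. In whole liver, fewer cells of a type and less RNA per cell cannot be told apart.

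The comparison asked whether transcripts of fatty acid oxidation differ when sleep restriction is added to forced activity. None of these genes passed the test. Of the 34, 30 had enough counts to be tested, and 0 were called by edgeR's quasi-likelihood test at a Benjamini-Hochberg adjusted p under 0.05, where 0.0201% of all 4986 genes tested were called. At an unadjusted p under 0.05 edgeR found 0 of the 30, against 4.19% of all genes tested, and DESeq2 and limma-voom found 0 called and 0 at that unadjusted p. Every adjusted p of the 30 genes was 0.999. Their log2 changes, given throughout as sleep restriction over forced activity, ran from -0.41 to 0.46 with a median of 0.04, beside a median of 0.00 over all genes tested. As a share of all counts the 34 genes took 1.08% and 1.03% in the control libraries, against 1.06% and 1.04% with sleep restricted.

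The 95% interval of each difference, not adjusted for the number of genes tested, gives the range of changes these libraries allow. Its width is not the smallest change that would be called, since only 41.5% of simulated 2-fold changes were called. For 28 of the 30 genes the interval lay within a 2-fold change in either direction, and for 9 of them, Acadm, Acadl, Acadvl, Acad11, Hadha, Etfa, Decr1, Fabp1 and Acsl1, within 1.5-fold. The median half-width was 0.49 on the log2 scale. Acot2 and Angptl4 were the exceptions, with upper bounds of 2.49-fold and 2.71-fold and, for Angptl4, a lower bound of 0.491-fold. For 21 of the 30 genes, Acot2 and Angptl4 among them, the interval reached past 1.5-fold. The missing call does not show equal levels for any of the 30 genes.

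**Figure D1:**
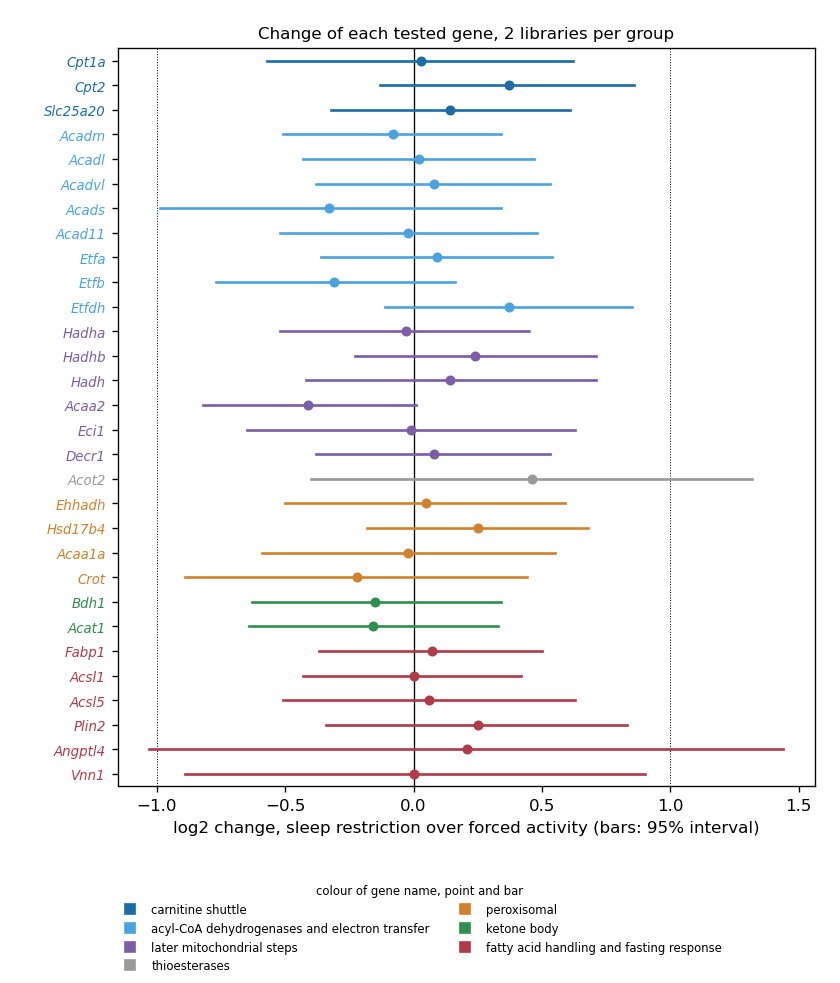
Log2 change of each of the 30 tested genes, sleep restriction over forced activity, with points for the fitted change, bars for its 95% interval, dotted lines at a 2-fold change and colours for the role of the gene. Every bar spans 0, the bar of Acaa2 nearly ends there with an upper bound of 0.01, and the bars of Acot2 and Angptl4 pass a dotted line.

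The carnitine shuttle carries long-chain fatty acids across the mitochondrial membranes. Cpt1a, the outer membrane transferase that sets the pace of entry, measured 428 and 244 CPM in the control libraries, against 376 and 307 CPM with sleep restricted. The control libraries lay on either side of both sleep restriction libraries, and the log2 change was 0.03 (95% interval -0.57 to 0.62). Cpt2, the inner membrane transferase that returns the acyl group to coenzyme A, measured 114 and 99.7 CPM, then 153 and 124 CPM. Both sleep restriction libraries were above both controls, by a log2 change of 0.37 (SE 0.22, unadjusted p = 0.13 in edgeR). Slc25a20, the translocase that exchanges acylcarnitine for carnitine, measured 138 and 127 CPM, then 152 and 140 CPM. Its groups did not overlap either, with a log2 change of 0.14 that was 0.14 within each pair of same-numbered libraries. Crat, which forms short-chain acylcarnitines, stayed under the count filter with 6.0 and 2.4 counts in the control libraries, against 11.7 and 7.0 counts with sleep restricted.

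Acyl-CoA dehydrogenases take the first step of each round, and their electrons pass through the electron transfer flavoprotein to the respiratory chain. All 8 genes of this group were tested, 4 with a positive and 4 with a negative change. Acadm, the medium-chain dehydrogenase, measured 718 and 655 CPM in the control libraries, against 682 and 611 CPM with sleep restricted. The groups overlapped, and its interval ran from 0.701-fold to 1.27-fold. Acadl and Acadvl, the long-chain and very-long-chain enzymes, had log2 changes of 0.02 and 0.08, and Acad11 had -0.02. Acads, the short-chain enzyme, was spread more widely, at 170 and 111 CPM, then 142 and 81.5 CPM. Both replicate 1 libraries were above both replicate 2 libraries, so the groups overlapped at a log2 change of -0.33 (SE 0.30).

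Of the flavoprotein and its oxidoreductase, no gene passed the test. Etfdh, which hands the electrons on to ubiquinone, measured 175 and 135 CPM in the control libraries, against 201 and 199.8 CPM with sleep restricted, a log2 change of 0.37 (SE 0.22, unadjusted p = 0.119 in edgeR). Etfb, the beta subunit of the flavoprotein, measured 215 and 255 CPM, then 179 and 199.8 CPM, a log2 change of -0.31 (SE 0.21, unadjusted p = 0.171 in edgeR). Etfdh thus lay higher and Etfb lower in both sleep restriction libraries, neither past the threshold. Etfa, the alpha subunit that pairs with Etfb, measured 214 and 215 CPM, then 218 and 241 CPM. The groups of Etfa did not overlap, at a log2 change of 0.09 whose interval ran from -0.36 to 0.54. The difference between Etfa and Etfb was not tested.

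Later mitochondrial steps are hydration, the second dehydrogenation and thiolysis. Acaa2, the mitochondrial 3-ketoacyl-CoA thiolase that releases acetyl-CoA, had the smallest p of all members. It measured 944 and 901 CPM in the control libraries, against 689 and 702 CPM with sleep restricted. The groups did not overlap, and the SD over 2 libraries was 30.3 CPM for forced activity and 9.2 CPM for sleep restriction. Acaa2 (ENSRNOG00000013766.7, chr18:70733872-70762395 in rn6) had a log2 change of -0.41 (SE 0.19, 95% interval -0.82 to 0.01), an unadjusted p = 0.0539 and an adjusted p = 0.999 in edgeR. Because its groups did not overlap, it was necessarily lower within both pairs of same-numbered libraries, by -0.45 and -0.36. With any 1 library left out the change stayed between -0.44 and -0.38.

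Hadha and Hadhb encode the alpha and beta subunits of the mitochondrial trifunctional protein, which carries out hydration, dehydrogenation and thiolysis of long chains in 1 complex. Their genes lie head to head on chromosome 6, and the sequence between them is shown because both subunits are read outward from it. In RefSeq's GRCr8 annotation the spacer covers chr6:31907558-31907800 and is 243 bases long. In the rn6 coordinates given with the counts, Hadhb ends at chr6:27582995 and Hadha starts at chr6:27589657, a wider gap. The GRCr8 spacer is printed on the plus strand, from the Hadhb side to the Hadha side. Capitals mark the match to the GC box GGGCGG, which lies on the opposite strand here.
Hadhb to Hadha spacer: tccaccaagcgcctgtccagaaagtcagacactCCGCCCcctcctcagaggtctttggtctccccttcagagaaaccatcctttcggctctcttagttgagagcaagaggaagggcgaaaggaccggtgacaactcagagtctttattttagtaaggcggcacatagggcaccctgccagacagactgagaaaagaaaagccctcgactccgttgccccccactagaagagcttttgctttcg

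RefSeq's table of promoter windows, each 300 bases from 250 before to 50 after a start, held 33 of the 37 genes in 34 windows, Plin2 having 2. The 3 genes without a row in the count table are among these 33. The GC box was found on either strand in 23 of these 34 windows, against 33.1% of all 33469 windows. The CCAAT box, searched as CCAAT on both strands, was in 15 of the 34, against 37.5% of all. The direct repeat AGGTCANAGGTCA, the textbook form of the PPARα element, was in 0 of the 34 and in 0.0538% of all windows. Only exact matches were searched, and these were so rare in all windows that 0 of 34 tells little. These matches are letters in a window and not measured binding. Windows of Hadha and Hadhb share 200 bases, and Etfdh was the only other member whose window overlapped one on the opposite strand, which 11.6% of all windows do.

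Hadha measured 291 and 238 CPM in the control libraries, against 284 and 231 CPM with sleep restricted. Its level followed replicate number and not group, with a log2 change of -0.03. Hadhb, read from the other side of the spacer shown above, measured 172 and 151 CPM, then 203 and 178 CPM. Here the groups did not overlap, and the log2 change was 0.24 (SE 0.21), with 0.23 and 0.24 in the replicate 1 and replicate 2 pairs. The difference between the changes of Hadha and Hadhb was not tested.

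Among the remaining genes of these steps, Hadh, the short-chain hydroxyacyl-CoA dehydrogenase, had a log2 change of 0.14. Decr1, which reduces the double bonds of unsaturated chains, had 0.08, and Eci1, the isomerase for such chains, had -0.01. The near-zero change of Eci1 came from opposed pairs, 0.28 in the replicate 1 pair and -0.43 in the replicate 2 pair. Echs1, the short-chain hydratase, was listed at only 2.9 and 1.3 counts in the control libraries, against 3.5 and 4.0 counts with sleep restricted, and was not tested. Acot2, a mitochondrial thioesterase that frees fatty acids from coenzyme A, measured 16.8 and 15.4 CPM, then 20.6 and 21.3 CPM. Its groups did not overlap, and its log2 change of 0.46 had a wide interval, -0.40 to 1.32. Acot2, Acot3 and Acot4 are close copies that lie side by side on chromosome 6, so reads may have been divided among them.

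Of the 18 mitochondrial genes tested, 11 had a positive and 7 a negative change, with 0 called. Their median log2 change was 0.05, with medians of 0.01 in the replicate 1 pair and 0.15 in the replicate 2 pair. With 1 library left out it ran from 0.02 to 0.14. The groups stood apart for 8 of the 18 genes, 6 with sleep restriction higher and 2 with it lower, where 32.4% of all genes tested stood apart, 17.1% higher and 15.3% lower.

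**Figure D2:**
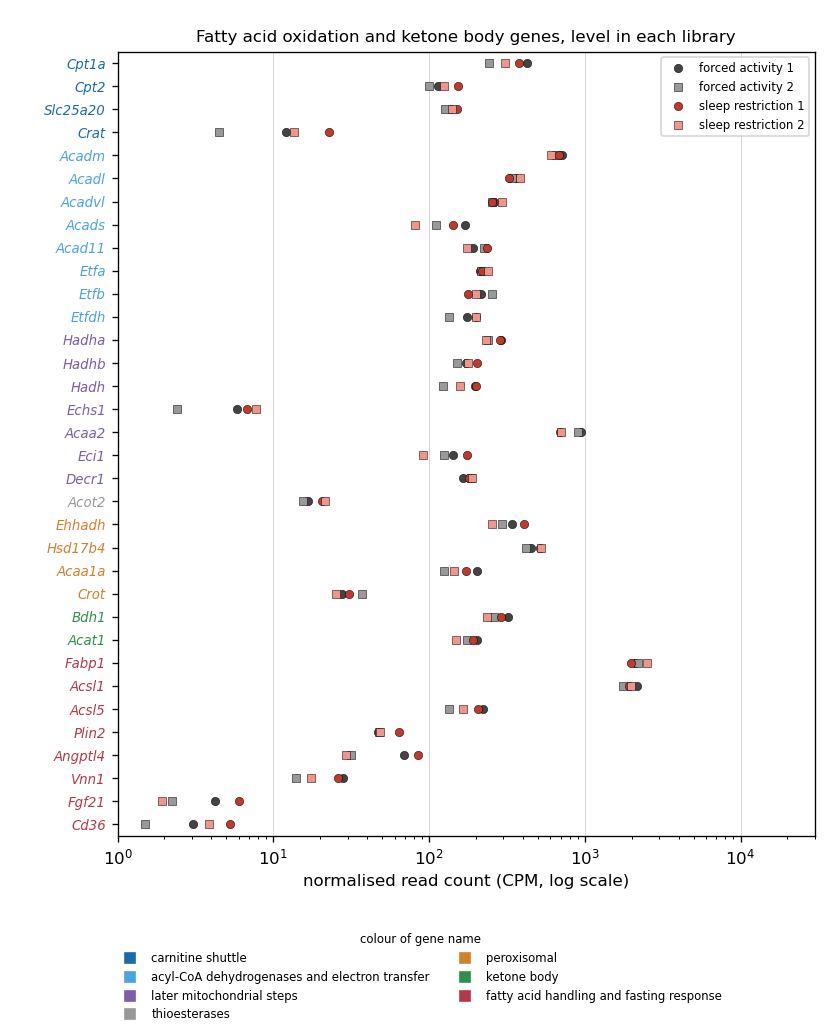
Normalised read count of the 34 genes in each of the 4 libraries on a log axis in CPM, with circles for replicate 1, squares for replicate 2, grey for forced activity and red for sleep restriction. Points of a gene lie close together for most genes, Acaa2 shows both controls to the right of both sleep restriction libraries, and Crat, Echs1, Fgf21 and Cd36 lie at the low end. Levels are not divided by transcript length, so genes cannot be ranked against each other.

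Peroxisomal oxidation was represented by 4 genes, all tested. Hsd17b4, the D-bifunctional protein that performs hydration and dehydrogenation of very long and branched chains, measured 452 and 416 CPM in the control libraries, against 515 and 520 CPM with sleep restricted. It alone among the 4 had groups that did not overlap, at a log2 change of 0.25 (SE 0.20, unadjusted p = 0.223 in edgeR). Ehhadh, the L-bifunctional protein and a classic PPARα target, measured 341 and 294 CPM, then 404 and 252 CPM. Its sleep restriction libraries lay outside the controls on either side, so the log2 change of 0.05 joined 0.24 in the replicate 1 pair with -0.22 in the replicate 2 pair. Acaa1a, the peroxisomal thiolase, had a log2 change of -0.02, and a close copy, Acaa1b, could have shared its reads. Crot, which exports medium-chain products as carnitine esters, measured 27.7 and 37.1 CPM, then 30.5 and 25.2 CPM, a log2 change of -0.22 (SE 0.30) with overlapping groups.

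The peroxisomal median log2 change was 0.01, with 2 positive and 2 negative changes. It depended on single libraries, since it was 0.23 without forced activity 1 and -0.25 without sleep restriction 1. Only 1 of the 4 genes had the same sign in both pairs of same-numbered libraries, against 12 of the 18 mitochondrial genes and 2809 of all 4986 genes tested. The difference between the compartments was not tested. Eci2, the isomerase listed with this group, had no row of its symbol. A row for its close relative Eci3, chosen after its values were seen, measured 559 and 499 CPM in the control libraries, against 516 and 497 CPM with sleep restricted.

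Ketone body metabolism was represented by Acat1, the mitochondrial acetoacetyl-CoA thiolase, and Bdh1, which interconverts acetoacetate and 3-hydroxybutyrate. Acat1 measured 203 and 175 CPM in the control libraries, against 190 and 149 CPM with sleep restricted. Bdh1 measured 323 and 261 CPM, then 292 and 235 CPM. In both genes the replicate 1 libraries were above the replicate 2 libraries, and within each pair the sleep restriction library was the lower. The log2 changes were -0.16 (SE 0.22) for Acat1 and -0.15 (SE 0.22) for Bdh1, within overlapping groups.

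Fatty acid handling genes and fasting-response genes completed the set. Fabp1, the liver fatty acid binding protein, measured 2102 and 2202 CPM in the control libraries, against 1983 and 2520 CPM with sleep restricted. The libraries of sleep restriction lay on either side of the controls, and the log2 change was 0.07. Acsl1 and Acsl5, which activate fatty acids to acyl-CoA, had intervals of 0.743-fold to 1.34-fold and 0.703-fold to 1.55-fold. Plin2, which coats lipid droplets, measured 47.3 and 47.9 CPM, then 64.2 and 48.5 CPM. The groups of Plin2 did not overlap, but only sleep restriction 1 stood clear of the controls, and the log2 change was 0.25 with all libraries and 0.03 at its lowest with 1 left out.

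Angptl4, a secreted inhibitor of lipoprotein lipase that fasting induces, varied most between libraries of a group among the tested members. It measured 68.7 and 31.6 CPM in the control libraries, against 84.6 and 29.1 CPM with sleep restricted. Within each group replicate 1 exceeded replicate 2, by 1.03 and 1.44 on the log2 scale, while the change between groups was 0.21 (SE 0.53). Vnn1, a pantetheinase and PPARα target, measured 28.1 and 13.9 CPM, then 26.0 and 17.5 CPM. It showed the same order, with a fitted interval of 0.54-fold to 1.86-fold and a log2 change that ran from -0.40 to 0.51 with 1 library left out. Fgf21, the fasting hormone of the liver, had 2.1 and 1.2 counts, then 3.1 and 1.0 counts. Cd36, a fatty acid transporter that endothelial cells and macrophages also express, had 1.5 and 0.8 counts, then 2.7 and 2.0 counts. These counts of Fgf21 and Cd36 are too low for a test, and no difference was detectable at this depth. The median log2 change of the 6 tested handling genes was 0.06, with -0.09 in the replicate 1 pair and 0.18 in the replicate 2 pair.

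**Figure D3:**
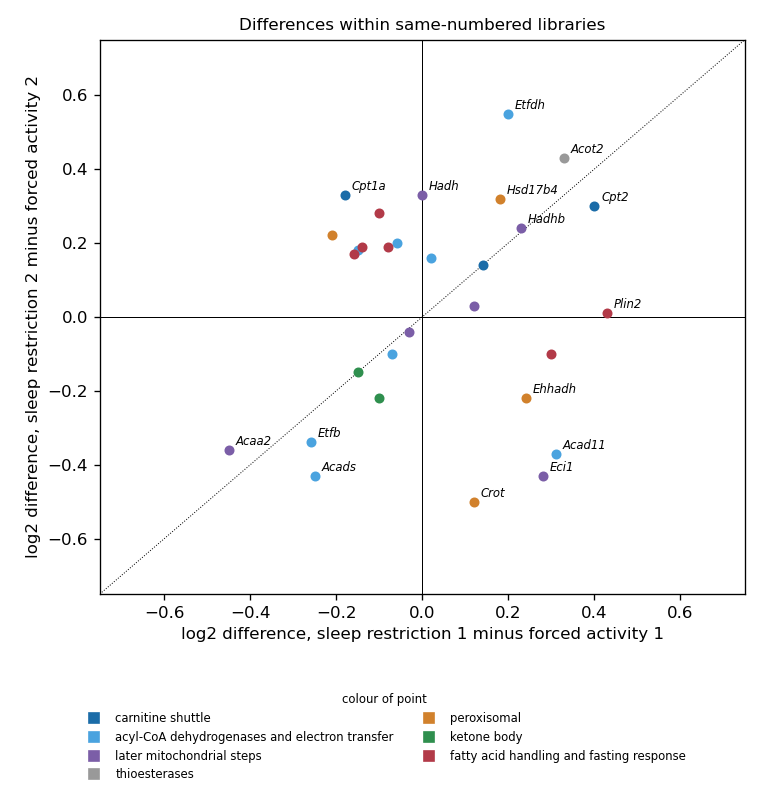
Log2 difference between sleep restriction and forced activity within the replicate 1 libraries (x axis) and within the replicate 2 libraries (y axis) for the 30 tested genes, coloured by role, with a dotted line where both are equal. Acaa2 and Etfb lie in the lower left and Cpt2, Etfdh, Hadhb and Hsd17b4 in the upper right, while Eci1, Acad11, Ehhadh and Crot have opposite signs in the 2 pairs.

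Seen across all tested members, separation of the groups was about as frequent as in the whole table. Groups did not overlap for 10 of 30 members (33.3%), against 32.4% of all genes tested. Both sleep restriction libraries were above both controls for 8 members (26.7%, against 17.1%) and below them for 2 members (6.67%, against 15.3%). The 2 lower members were Acaa2 and Etfb. The 8 higher members were Cpt2, Slc25a20, Hadhb, Etfa, Etfdh, Acot2, Hsd17b4 and Plin2. Signs agreed between the 2 pairs of same-numbered libraries for 16 of the 30.

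More members were ordered by replicate number. For 13 of 30 members (43.3%, against 21.4% of all genes tested) both replicate 1 libraries were above both replicate 2 libraries, and for 2 members, Decr1 and Fabp1, they were below (6.67%, against 21.9%). The 13 genes were Cpt1a, Acadm, Acads, Hadha, Hadh, Eci1, Ehhadh, Acaa1a, Bdh1, Acat1, Acsl5, Angptl4 and Vnn1. Among them were 6 of the 18 mitochondrial genes, 2 of the 4 peroxisomal genes and both ketone body genes. Cpt1a was higher in replicate 1 by 0.81 under forced activity and by 0.29 under sleep restriction on the log2 scale, Acads by 0.59 and 0.77, and Angptl4 by 1.03 and 1.44. Depth before drawing separated the same libraries, and its part in this order was not tested.

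**Figure D4:**
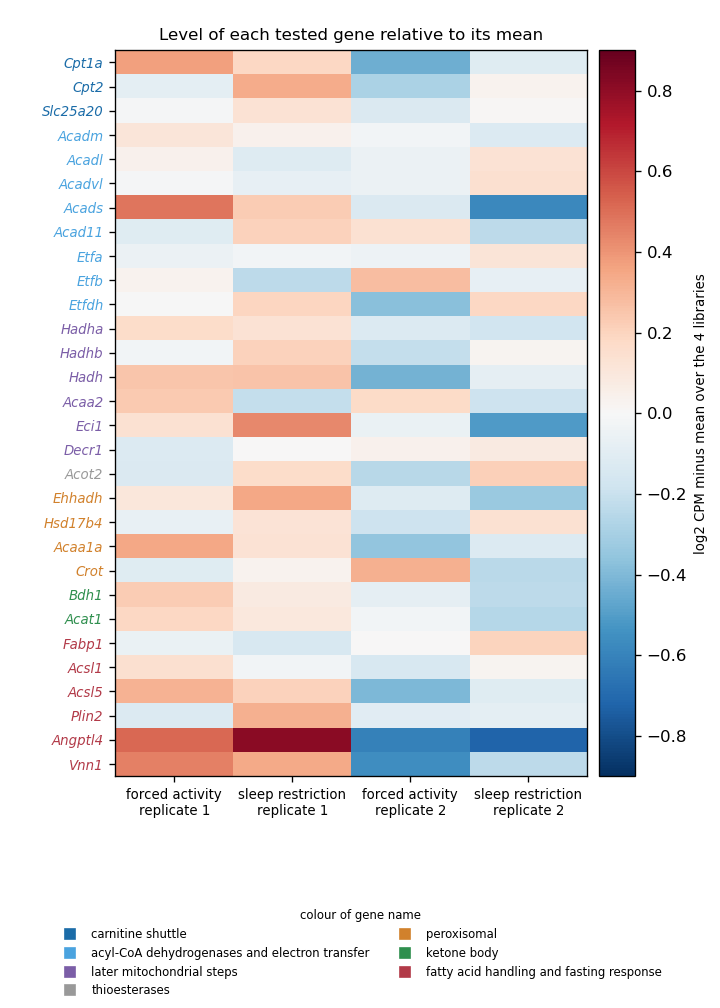
Level of each of the 30 tested genes in each library as log2 CPM minus its mean over the 4 libraries, red above and blue below, with the replicate 1 libraries in the left 2 columns and the replicate 2 libraries in the right 2. Angptl4, Vnn1, Cpt1a, Hadh, Acsl5 and Acaa1a are red on the left and blue on the right, whereas Acaa2 is red in both forced activity columns and blue in both sleep restriction columns.

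Other genes of fatty acid oxidation, ketogenesis and their control were followed as a list of 56 symbols, of which 54 had a row and 38 rows were tested. In edgeR 0 were called, 21 had a positive and 17 a negative change, and the median was 0.03. At an unadjusted p under 0.05 there was 1 of the 38 in edgeR, where 4.19% of all genes tested were found. DESeq2 had 0 and limma-voom 3 at that unadjusted p, with 0 called by either. Lpin1, a phosphatidate phosphatase and transcriptional coactivator of oxidation genes, was the one found by edgeR. It measured 48.7 and 23.8 CPM in the control libraries, against 88.1 and 52.4 CPM with sleep restricted, a log2 change of 0.96 (SE 0.36, unadjusted p = 0.0244, adjusted p = 0.999 in edgeR). Its groups did not overlap, so sleep restriction was necessarily higher in both pairs of same-numbered libraries, by 0.80 and 1.01. With 1 library left out the change ran from 0.52 to 1.52, and the unadjusted p was at or above 0.05 in 3 of those 4 fits.

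Pdk4, the kinase that holds back pyruvate oxidation when fat is burned, measured 42.0 and 28.6 CPM, then 26.8 and 7.76 CPM. Its groups did not overlap, with a log2 change of -0.99 (SE 0.46, unadjusted p = 0.0577 in edgeR) that ran from -2.14 to -0.36 with 1 library left out. Rxra, the partner receptor of PPARα, had 126 and 63.9 CPM, then 172 and 128 CPM, a log2 change of 0.66 (SE 0.31, unadjusted p = 0.059 in edgeR) that ran from 0.23 to 1.24 with 1 library left out. Ppara itself measured 20.4 and 11.9 CPM, then 31.8 and 17.5 CPM, and its groups overlapped at 0.64 (SE 0.44), which ran from 0.16 to 1.10 in the same way. Ppargc1a, a coactivator of oxidation genes, had 0.5, 0, 0.7 and 3 counts in forced activity 1 and 2 and sleep restriction 1 and 2, and was not tested. In this list 26 of 38 tested genes (68.4%, against 21.4% of all genes tested) were higher in both replicate 1 libraries than in both replicate 2 libraries. Another 3 were lower (7.89%, against 21.9%), so the order by replicate number was found outside the 34 genes too.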

How the data were processed

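RNA-seq of rat liver gave 4 libraries, 2 per group, grouped by the labels. RNA was extracted with TRIzol and messenger RNA purified, per the labels' protocols. The submitters' processing notes name CASAVA, STAR 2.4.1d and rn6 with no role; the program that counted reads is not stated there or in the labels. The authors deposited estimated counts per gene, all multiples of 0.1, as a mean over 10 draws would give. The share of reads kept per draw, estimated by maximum likelihood from low values, was 0.04 (range 0.02 to 0.08) in forced activity 1, 0.60 in forced activity 2 and 0.06 (0.02 to 0.09) in sleep restriction 1. Sleep restriction 2 was whole at all but 1 gene and was taken as undrawn.

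Rounded counts went into edgeR 4.0.16 under R 4.3.3 (TMM factors, filterByExpr with minimum count 10, robust quasi-likelihood, Benjamini-Hochberg over 4986 genes). Log2 changes use a prior count of 0.125, the standard error (SE) is the change over the square root of F, and 95% intervals follow from it. CPM are scaled by TMM factors, and differences within same-numbered libraries use log2 CPM with a prior count of 2. On 20 data sets simulated for this comparison (a median of 4726.5 genes tested), 41.5% of 2-fold and 93.9% of 4-fold changes were found. Of the calls 6.7% were false, and intervals covered 94.9% of unchanged genes. The simulated counts were whole and independent, with the same dispersion of a gene in every library. They did not copy the averaging over draws or the unequal depth of these columns, so the figures may not carry over. DESeq2 1.42.0 and limma 3.58.1 were alternatives.

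Members and lists were chosen with earlier results of these data known. Values in every library are given for the 2 genes with the smallest p and the one with the highest mean in each role, plus a fixed set. Members under the count filter are given by their counts. Acads and Etfa fall outside this rule and were chosen after their values were seen. Of the other pathway genes, the 4 with the smallest p, Ppara, Pdk4 and Ppargc1a are given, and 1 gene that the rule names is not reported here.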

Additional observations from a re-analysis of the deposited data

How the results depend on the processing

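The count of genes called moved from 1 to 2 with DESeq2 and with effective counts (each library scaled to the precision its draws give), to 0 without robust estimation, to 5 without a filter, where 12703 genes were tested, and to 5 with a replicate block. It was 0 to 0 with 1 library left out. No member and no other pathway gene was called under any of these alternatives. No label ties same-numbered libraries to one animal or batch, and their deviations correlated at 0.207 over genes, so with only 2 pairs they were not treated as paired. With the replicate block the smallest adjusted p of a member was 0.805 (Acaa2). An unadjusted p under 0.05 was reached by Acaa2 in 6 alternatives (0.0404 to 0.0498: RLE factors, totals only, no filter, the 5 CPM filter, the block, and without forced activity 2), by Crat without a filter (0.0351) and with the 5 CPM filter (0.0444), and by Etfdh without forced activity 1 (0.0332), never after adjustment. Cpt1a changed sign with genes kept at 5 CPM in 2 libraries (-0.01). The median log2 change of the peroxisomal genes ran from -0.25 to 0.23 with 1 library left out, that of the handling genes from -0.19 to 0.33, and that of the ketone body genes from -0.33 to 0.00. Single genes were followed with 1 library left out for only part of the members, and not for Eci1, Acad11, Acaa1a or Acads among others. Among those followed, signs also changed for Cpt1a (-0.33 to 0.49), Angptl4 (-0.76 to 0.85), Ehhadh (-0.34 to 0.35) and Fabp1 (-0.12 to 0.22). They changed too for Vnn1 (-0.40 to 0.51, around 0.00), Hadha (-0.20 to 0.12), Acat1 (-0.35 to 0.01) and Bdh1 (-0.32 to 0.01). The cause was not tested. A library left alone in its group borrows the spread of the other group. Crat, Echs1, Fgf21 and Cd36 stayed under the count filter of the main fit, and why their counts were low was not tested. Without a filter all 34 members were tested, and with the 5 CPM filter 32 were.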
